A study of Mus musculus with 16 samples.

Results

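The 45 genes described here are the mouse Wnt ligands, the Frizzled and LRP receptors, the secreted inhibitors of the DKK and SFRP families, β-catenin with its DNA-binding partners Lef1, Tcf7 and Tcf7l2, and the feedback targets Axin2, Nkd1, Nkd2, Rnf43 and Znrf3. They were chosen by name among the protein-coding genes listed in both deposited tables, and make up 45 of 30277 genes, of which 17903 are protein-coding. By role they were 16 ligands, 12 receptors, 8 secreted inhibitors, 4 intracellular effectors and 5 feedback targets. Wnt1, Wnt3a and Wnt8a were not analysed here. The study compared kidneys of mice with renal failure and kidneys of healthy mice in each sex. All 16 mice were congenic 129S1/SvlmJ. The groups were 5 Kl/Kl males of 44 to 47 days, 3 +/Kl males of 45 or 46 days, 4 Kl/Kl females of 45 to 54 days and 4 +/+ females of 45 to 49 days. The labels do not say how the Kl allele was made. Sex, deposited table and control genotype went together and cannot be told apart. The labels number the samples but say nothing of litters, so p-values measure the spread between these mice.

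Wnt proteins are secreted lipid-modified ligands that bind a Frizzled receptor together with LRP5 or LRP6. In the canonical branch this stops the destruction of β-catenin, which then enters the nucleus and switches on target genes with TCF and LEF factors. Axin2, Nkd1, Nkd2, Rnf43 and Znrf3 are switched on by the pathway and damp it. In the kidney, Wnt ligands shape the nephron and the collecting duct before birth, are low in the adult and are known to return in injured tubules and fibroblasts. Klotho, the product of the gene Kl, is a co-receptor for the hormone FGF23, and its shed form has been reported to bind Wnt ligands.

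Values are given as estimated CPM (reads of a gene scaled to a common library total, recovered as the deposited TPM times the genomic span), so they compare a gene between libraries and not different genes with each other. Libraries held 21.6 to 31.8 megareads by this estimate, and 1 read was worth 0.0315 to 0.0463 CPM. Every log2 fold change is Kl/Kl minus control on the scale log2(CPM + 0.5). A gene counted as changed where its p from limma, adjusted over all genes tested by Benjamini and Hochberg, was under 0.05. Where 3 or more values of a group are listed they run from replicate 1 upwards. Kl averaged 4.37 ± 4.17 CPM in Kl/Kl males (SD, n = 5) and 409 ± 157 in +/Kl males (SD, n = 3). It averaged 9.27 ± 8.11 in Kl/Kl females and 599 ± 186 in +/+ females (SD, n = 4 each), and no Kl/Kl library reached its controls. It fell by 6.76 on the log2 scale in males (limma adjusted p = 7.17e-05) and fell in females without Kl/Kl replicate 3 (log2 -5.83, adjusted p = 0.00206), while with that library the female value of -6.36 did not pass (adjusted p = 0.157). A pair of libraries stood apart. Female Kl/Kl replicate 3 had a median Spearman correlation of 0.63 with the other libraries, and its 6 proximal tubule markers summed to 38.2 CPM, against 4630 to 12800 in the other 15 libraries. Its 6 heart muscle markers summed to 10000 (at most 14.1 elsewhere) and its 5 airway markers to 4590 (at most 1.77), so the kidney label goes against its markers. Male control replicate 3 gave 21.6% of its reads to mitochondrial genes and female Kl/Kl replicate 3 gave 19.7%, against 9.2% to 12.0% elsewhere. All fits were run with and without these libraries. Male results for single genes and male marker sums cover all male libraries unless stated. In Kl/Kl males 1 and 2 the 4 adrenal cortex markers summed to 46.7 and 256 CPM, against 3.01 to 6.68 in the other 14 libraries. The adrenal enzyme gene Cyp11b1 was at 12.7 and 70.4 there, at 0.174 in Kl/Kl male 3 and without a read in the rest.

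Of the 45 members, 38 averaged at least 0.5 CPM in the libraries of some fit and could be tested. The 7 that did not were Wnt3, Wnt6, Wnt7a, Wnt10b, Fzd10, Dkk1 and Dkk4, whose highest single value was the 0.534 CPM of Wnt6 in Kl/Kl male 1. Sfrp4 and Sfrp5, both secreted decoys for Wnt, reached this minimum in females and not in males. Sfrp5 reached it only with Kl/Kl female 3, where it was at 1.62 CPM. In each male fit 36 members were tested.

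In Kl/Kl males more members rose than fell, among them receptors, a TCF factor and feedback targets. Over all 8 libraries 9 members rose (Wnt10a, Wnt16, Fzd2, Fzd4, Fzd6, Dkk3, Tcf7, Axin2 and Rnf43) and 1, the receptor gene Fzd8, fell. This was 27.8% of the 36 members, where 20.4% of all 17411 genes passed, 15% higher and 5.36% lower. Without male control replicate 3, 5 members rose (Fzd2, Fzd4, Fzd6, Dkk3 and Tcf7) and Fzd8 fell, which is 16.7% of members against 18.2% of all genes, 12.7% higher and 5.5% lower. The share of members past the threshold was thus above that of all genes with that library and below it without that library. The median log2 fold change of the members was 0.47 over all libraries and 0.42 without control replicate 3, against 0.19 and 0.16 over all genes. With median-of-ratios scaling the median over all genes was 0.02 and 0 and that of the members 0.30 and 0.26, and the members past the threshold were Wnt10a, Fzd6, Fzd8, Dkk3, Tcf7 and Axin2, and without control replicate 3 Fzd6, Fzd8 and Tcf7. Of all genes past the threshold 73.7% were higher in Kl/Kl males with the first scaling and 43% with the second, or 69.7% and 39.5% without control replicate 3. Fzd6, Tcf7 and Fzd8 passed under both scalings, with and without that library.

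**Figure D1:**
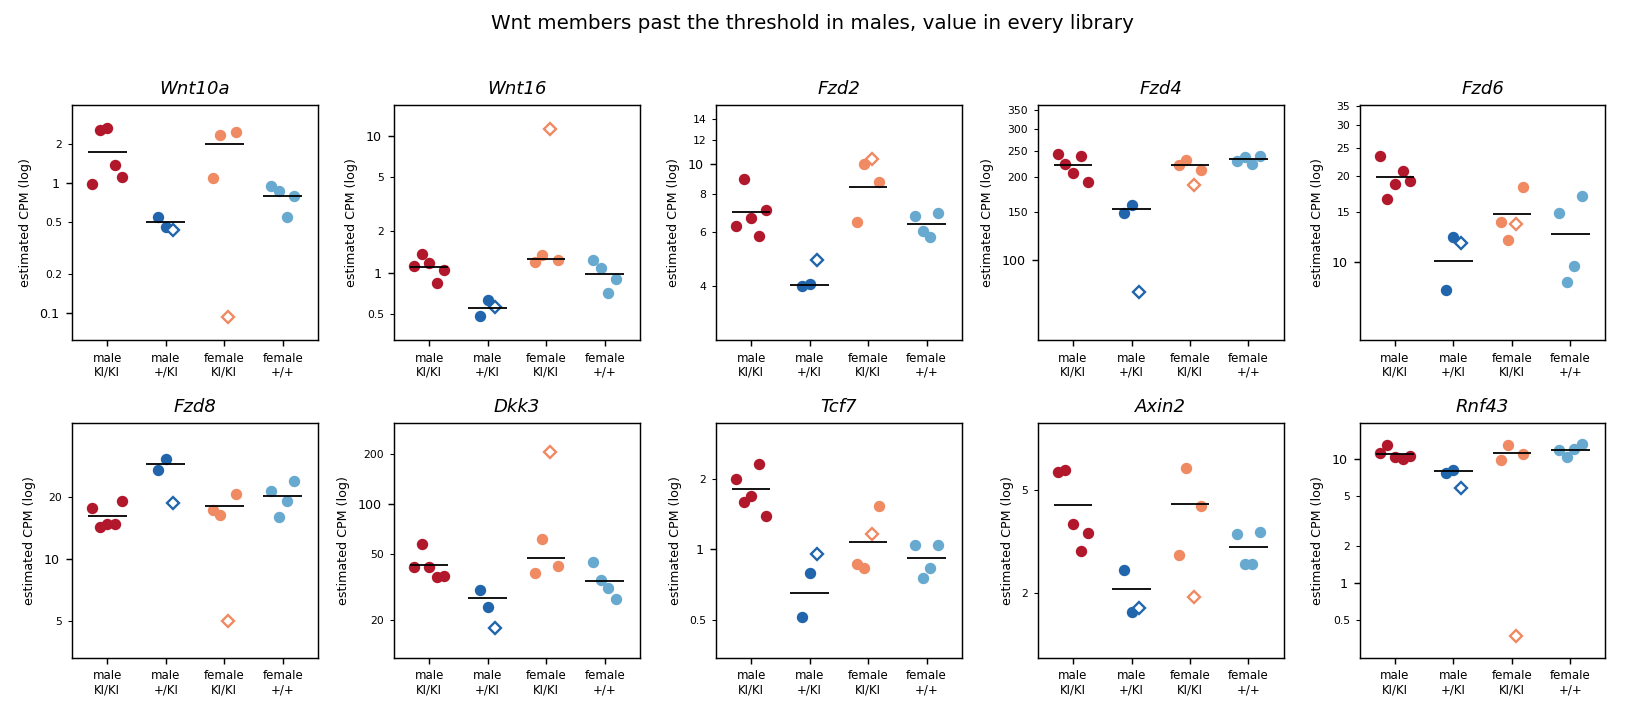
Estimated CPM (log axis) of the 10 members past the threshold in males, in each library of Kl/Kl males, +/Kl males, Kl/Kl females and +/+ females. Circles are libraries, open diamonds are the libraries that stood apart, and bars are group means without them. Fzd6 lay between 16.6 and 23.5 in Kl/Kl males and between 8.04 and 12.2 in +/Kl males.

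Cell type markers moved with the male groups. The 6 collecting duct markers summed to 969 to 1490 CPM in Kl/Kl males, against 534 to 664 in +/Kl males. The 5 podocyte markers summed to 523 to 614 against 283 to 367, the 5 endothelial markers to 364 to 589 against 300 to 323, and the 6 fibroblast and pericyte markers to 174 to 303 against 127 to 170. The 5 distal convoluted tubule and thick ascending limb markers summed to 5420 to 7120 in Kl/Kl males, against 2850 to 5390 in +/Kl males. Most of that sum was Umod, with 3700 to 4670 against 1590 to 3580. Pvalb was lower in every Kl/Kl male (12.6 to 36.2 against 41.4 to 47.1), and Slc12a1, Slc12a3 and Cldn16 overlapped. The sum of each of these lists was higher in every Kl/Kl male than in every +/Kl male. Single genes could differ from their list: of the fibroblast markers, the collagen gene Col3a1 had 9.79, 43.3, 16.8, 10.8 and 39.4 CPM in Kl/Kl males, against 43.5, 30.5 and 30.9 in +/Kl males, and Col1a1 had 5.71 to 24.8 against 14.0 to 21.3. The 4 macrophage markers summed to 37.9 to 75.6 in Kl/Kl males and 75.5 to 101 in +/Kl males. Most of that sum was Csf1r, with 28.5 to 56.6 in Kl/Kl males and 66.8 to 89.9 in +/Kl males. Cd68 went the other way, with 2.37 to 5.53 against 1.45 to 2.15. C1qa (5.25 to 13.6 against 4.34 to 6.49) and Adgre1 (1.81 to 4.53 against 1.19 to 2.95) overlapped. The sums of the 6 proximal tubule markers overlapped, with 4630 to 9460 in Kl/Kl males and 5950 to 10600 in +/Kl males. Of these markers, Slc22a6 was lower in every Kl/Kl male (150 to 444 against 844 to 1250). Slc5a12 was higher in every Kl/Kl male (860 to 1440 against 84.0 to 500), and Slc34a1, Cubn, Lrp2 and Slc5a2 overlapped. All genes of these lists were in the tables, and their part in the results was not tested. In bulk tissue, fewer cells of a type and less RNA per cell cannot be told apart.

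Among the ligands, 2 of 12 tested passed the threshold in males over all 8 libraries and 0 of 12 without control replicate 3, where 4 had an unadjusted p under 0.05. Of all genes, 20.4% passed over all libraries (15% higher) and 18.2% without control replicate 3. Without that library, 6105 of 17385 genes had an unadjusted p under 0.05. Wnt10a, a canonical ligand, had 0.986, 2.56, 2.64, 1.36 and 1.10 CPM in Kl/Kl males, against 0.549, 0.460 and 0.438 in +/Kl males. Its groups did not overlap, and the change was 1.11 on the log2 scale (limma adjusted p = 0.0207, SE 0.28). The call ended without control replicate 2 (adjusted p = 0.0625) or control replicate 3 (adjusted p = 0.0513), where the size was 1.09 and 1.08. Wnt16, a ligand best known from bone, had 1.11, 1.36, 1.18, 0.842 and 1.04 CPM in Kl/Kl males, against 0.481, 0.625 and 0.557 in +/Kl males. Every Kl/Kl male was above every control (log2 0.60, SE 0.18, adjusted p = 0.0415), and the call was kept in 1 of 8 fits that each left out a library, the one without Kl/Kl male 4 (adjusted p up to 0.125 in the others).

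Ligands with known places in the kidney did not pass the threshold. Wnt7b, which the collecting duct makes, had 22.3, 27.6, 28.3, 13.0 and 19.3 CPM in Kl/Kl males, against 14.7, 12.6 and 10.6 in +/Kl males, and the groups overlapped (log2 0.74, adjusted p = 0.0535). Wnt9b, which starts nephron formation from the ureteric bud, had 3.59 to 7.37 in Kl/Kl males and 4.81 to 6.51 in +/Kl males (log2 -0.25, adjusted p = 0.461). Wnt4, which turns mesenchyme into nephron epithelium and is also made by the adrenal cortex, had 9.61, 10.6, 6.40, 2.45 and 6.08 in Kl/Kl males, against 5.53, 3.95 and 7.00 in +/Kl males. Its highest values were in Kl/Kl males 1 and 2, the libraries with adrenal markers, and their part in this was not tested. Wnt11, a ligand of ureteric branching, had 1.19, 1.91, 1.88, 3.29 and 2.36 in Kl/Kl males, against 0.790, 0.921 and 2.35 in +/Kl males. Its groups parted only when control replicate 3, the 2.35, was left out, and the log2 fold change was then 0.91 (adjusted p = 0.0565). Wnt5a, the main ligand of the β-catenin-independent branch, had 9.53 to 17.8 in Kl/Kl males and 11.8 to 17.9 in +/Kl males (log2 -0.14, adjusted p = 0.693). The other ligands tested in males, Wnt2, Wnt2b, Wnt5b, Wnt8b and Wnt9a, had log2 fold changes from 0.15 to 0.57 over all libraries.

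Of the receptors, 3 of 11 rose and 1 fell in males, with and without control replicate 3. Of all genes, 15% rose and 5.36% fell with that library, and 12.7% rose and 5.5% fell without it. Fzd6, which acts mainly in planar polarity, had 23.5, 16.6, 18.8, 20.8 and 19.2 CPM in Kl/Kl males, against 8.04, 12.2 and 11.7 in +/Kl males. The groups stood well apart, with a log2 fold change of 0.88 (limma adjusted p = 0.00884, SE 0.18), or 0.95 without control replicate 3 (adjusted p = 0.0144). Its call was kept in all 8 fits that each left out a library, with adjusted p up to 0.0365. In the females Fzd6 had 13.8, 12.0, 13.6 and 18.3 in Kl/Kl mice, against 14.8, 8.53, 9.72 and 17.0 in +/+ mice, and the groups overlapped.

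Fzd4 (chromosome 7, 89053563 to 89062343, build mm39), the receptor for Norrin as well as Wnt and abundant in endothelium, had 244, 224, 207, 239 and 192 CPM in Kl/Kl males, against 148, 159 and 76.7 in +/Kl males. Control replicate 3 was the lowest of all, and the controls lay below every Kl/Kl male. The log2 fold change was 0.85 (SE 0.23, adjusted p = 0.0255) with that library and 0.52 (SE 0.13, adjusted p = 0.03) without it. The call ended without Kl/Kl male 1 (adjusted p = 0.0531) or 4 (adjusted p = 0.0530). Fzd2, a receptor for canonical ligands and Wnt5a, had 6.29, 8.97, 6.68, 5.82 and 7.09 in Kl/Kl males, against 3.98, 4.05 and 4.85 in +/Kl males (log2 0.63, adjusted p = 0.0343; 0.71, adjusted p = 0.0348, without control replicate 3). Its groups did not overlap, and its call ended without Kl/Kl male 2, 3 or 5 or control 1 or 2, with adjusted p up to 0.106.

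Fzd8 had 17.8, 14.3, 14.9, 14.8 and 19.2 CPM in Kl/Kl males, against 27.1, 30.6 and 18.7 in +/Kl males. The 18.7 is control replicate 3 and was the only control within the Kl/Kl range. The fall was -0.62 on the log2 scale (SE 0.19, adjusted p = 0.0402) with it and -0.82 (SE 0.16, adjusted p = 0.0124) without it. With it, the call was kept in 2 of 8 fits that each left out a library, those without control replicate 3 and without Kl/Kl male 5 (adjusted p from 0.0558 to 0.156 in the others). The co-receptor gene Lrp6 had 413, 292, 275, 435 and 294 CPM in Kl/Kl males, against 268, 256 and 102 in +/Kl males. Control replicate 3 held the 102, and the log2 fold change of 0.81 (adjusted p = 0.0844) was 0.36 (adjusted p = 0.240) without it. For Lrp5, the other co-receptor, control replicate 3 had 24.1 against 52.6 to 83.5 in Kl/Kl males and 57.5 and 60.8 in the other +/Kl males. The remaining receptors Fzd1, Fzd3, Fzd5, Fzd7 and Fzd9 had log2 fold changes from 0.15 to 0.76 over all libraries and none passed. For Fzd1 the sign turned with median-of-ratios scaling (-0.04) and without control replicate 3 (-0.13).

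Of the secreted inhibitors, 1 of 4 tested rose in males, where 15% of all genes did. Dkk3, a DKK-family glycoprotein whose action on Wnt depends on the cell, had 41.5, 57.3, 41.6, 36.2 and 36.9 CPM in Kl/Kl males, against 30.2, 23.8 and 17.7 in +/Kl males. The groups did not overlap, and the log2 fold change was 0.84 (limma adjusted p = 0.0175, SE 0.20), or 0.64 (adjusted p = 0.0481) without control replicate 3. The call ended without control replicate 2 (adjusted p = 0.0511). Its highest male value was in Kl/Kl male 2, with the most adrenal marker reads, and the part of adrenal tissue in this was not tested. Sfrp1, which binds and holds Wnt ligands, had 48.3, 111, 85.5, 53.4 and 126 in Kl/Kl males, against 150, 157 and 105 in +/Kl males. The groups overlapped through control replicate 3, the 105, and the log2 fold change of -0.77 did not pass (adjusted p = 0.1; -0.95, adjusted p = 0.0889, without control replicate 3). Dkk2 and Sfrp2 overlapped between the groups. Sfrp5, below the filter in males, had 8, 11, 6, 2 and 8 estimated reads in Kl/Kl males, against 23, 23 and 12 in +/Kl males. These groups did not overlap, and Sfrp5 passed the threshold as lower when the minimum was 0.1 CPM or absent. Wnt10b, a ligand also below it, had 7, 10, 4, 5 and 9 estimated reads in Kl/Kl males, against 3, 1 and 2 in +/Kl males, and passed as higher only with no minimum and all 8 libraries.

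Of the intracellular effectors, 1 of 4 rose in males, where 15% of all genes did. Tcf7 (chromosome 11, 52143198 to 52174159, build mm39), which encodes TCF1, a DNA-binding partner of β-catenin that lymphocytes also use, had 2.01, 1.60, 1.70, 2.33 and 1.39 CPM in Kl/Kl males, against 0.515, 0.789 and 0.955 in +/Kl males. All Kl/Kl males were above all controls, by 0.88 on the log2 scale (limma adjusted p = 0.0156, SE 0.21), or 1.00 (SE 0.22, adjusted p = 0.0184) without control replicate 3. The call ended without control replicate 1 (adjusted p = 0.0666). The 5 lymphocyte markers summed to 0.816 to 1.16 CPM in Kl/Kl males and 0.994 to 1.79 in +/Kl males, and overlapped. Cd79b was the largest single part of that sum. Cd3e and Cd3g, the T cell markers of the list, were at most 0.239 in males, where 1 read was worth 0.0315 to 0.041. The sum therefore cannot show whether T cells changed. Ctnnb1, which encodes β-catenin, had 444, 583, 567, 446 and 536 in Kl/Kl males, against 566, 580 and 293 in +/Kl males. Its groups overlapped, and its log2 fold change was 0.16 (adjusted p = 0.661), turning to -0.03 with median-of-ratios scaling and to -0.16 without control replicate 3, which held the 293. Lef1 and Tcf7l2, the other partners among the members, had log2 fold changes of -0.19 and 0.08 and overlapping groups. Tcf7l2 turned to -0.10 with median-of-ratios scaling. Tcf7l1, a TCF gene outside the members, rose and is given below with the nuclear cofactors. It had 11.7 to 16.8 CPM in Kl/Kl males, against 7.04 to 8.69 in +/Kl males.

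All 5 feedback targets were above 0 in males, with and without control replicate 3, as were 11629 of 17411 genes with it and 11126 of 17385 without it. Over all libraries 2 of 5 passed the threshold, where 20.4% of all genes passed, 15% higher and 5.36% lower, and 0 of 5 passed without that control (18.2% of all genes). Axin2 (chromosome 11, 108811175 to 108841610, build mm39), the most general readout of canonical signalling, had 5.87, 5.97, 3.69, 2.89 and 3.40 CPM in Kl/Kl males, against 2.44, 1.68 and 1.75 in +/Kl males. The groups did not overlap (log2 0.95, SE 0.25, limma adjusted p = 0.0261). The call ended without Kl/Kl male 1 (adjusted p = 0.0527), control replicate 2 (adjusted p = 0.0881) or control replicate 3 (log2 0.89, adjusted p = 0.0639). Its highest values were in Kl/Kl males 1 and 2, the libraries with adrenal markers, and the part of adrenal tissue in this was not tested. Without both libraries, a choice made after seeing the data, the log2 fold change of Axin2 was 0.65 (adjusted p = 0.106). Rnf43, a membrane ubiquitin ligase that removes Frizzled from the cell surface, had 11.2, 13.0, 10.5, 10.0 and 10.6 in Kl/Kl males, against 7.76, 8.25 and 5.81 in +/Kl males. The groups did not overlap (log2 0.58, SE 0.17, adjusted p = 0.0355), and the call was kept in 1 of 8 fits that each left out a library, the one without Kl/Kl male 4 (adjusted p up to 0.0785). Its partner Znrf3 had 13.8 to 22.9 in Kl/Kl males and 10.4 to 13.8 in +/Kl males (log2 0.45, adjusted p = 0.116). Nkd1 and Nkd2, which bind Dishevelled, had log2 fold changes of 0.31 (adjusted p = 0.313) and 0.43 (adjusted p = 0.118).

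With Kl/Kl males 1 and 2 both left out, 1 member of 35 passed over all other male libraries, Fzd6 (log2 0.87, limma adjusted p = 0.0379). With control replicate 3 left out as well, Fzd6 (0.95, adjusted p = 0.0372), Fzd8 (-0.82, adjusted p = 0.0372) and Wnt11 passed. The share of all genes past the threshold in these reduced fits is not given here, so their member counts cannot be set against it. Counted over single libraries, 14 of 36 members were higher in every Kl/Kl male than in every +/Kl male and 0 were lower, 38.9% against 30% of all genes, 22.5% higher and 7.52% lower. Without control replicate 3 the counts were 16 higher and 2 lower, 50% against 43.9% of all genes, 31.1% higher and 12.8% lower. That fit had 2 controls. Leaving out control replicate 1 as well ended all 6 calls (limma adjusted p from 0.0924 for Fzd8 to 0.22 for Fzd4), and leaving out control replicate 2 ended all but that of Fzd6, with the lone control taken to vary like the other group. The call of Dkk3 also ended without Kl/Kl male 1, 2, 3 or 5 (adjusted p from 0.0505 to 0.0696), that of Fzd2 without Kl/Kl male 3 (0.0507) or 5 (0.0555), and that of Fzd4 without Kl/Kl male 2 (0.0556).

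Promoter sequences are shown for the feedback target Axin2 and for Fzd4, whose change differed between the sexes without the libraries that stood apart. For the ligands Wnt5b and Wnt11 the window with a TCF/LEF core is shown, and no other member window had it. The windows are from RefSeq, build GRCm38.p6, and were searched from 250 bases before to 50 bases after each gene start for CTTTGAT or its reverse complement ATCAAAG. A window was at hand for 31 members (41 windows), among them Wnt16, Fzd4, Tcf7, Rnf43 and Axin2 of the members past the threshold. The core was in 2 of 41 member windows and in 1225 of 32851 windows of all genes (3.73%), and in 0 of the windows of the 5 members past the threshold. These letters are absent from those windows only, and a match is a description of sequence. The 250 bases before the start follow, 5′ to 3′ on the gene's strand, with the core in capitals.
Axin2, chr11:108920099-108920348, plus strand: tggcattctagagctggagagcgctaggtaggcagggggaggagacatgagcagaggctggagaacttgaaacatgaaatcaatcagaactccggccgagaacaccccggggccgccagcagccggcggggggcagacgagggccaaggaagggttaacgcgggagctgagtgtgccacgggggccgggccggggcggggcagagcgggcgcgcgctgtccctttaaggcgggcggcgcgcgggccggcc
Fzd4, chr7:89404116-89404365, plus strand: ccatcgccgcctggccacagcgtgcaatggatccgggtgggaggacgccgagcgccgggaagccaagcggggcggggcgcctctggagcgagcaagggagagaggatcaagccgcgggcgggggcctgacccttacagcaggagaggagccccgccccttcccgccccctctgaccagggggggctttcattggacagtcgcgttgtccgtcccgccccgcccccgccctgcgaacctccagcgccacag
Wnt5b, chr6:119449387-119449636, minus strand: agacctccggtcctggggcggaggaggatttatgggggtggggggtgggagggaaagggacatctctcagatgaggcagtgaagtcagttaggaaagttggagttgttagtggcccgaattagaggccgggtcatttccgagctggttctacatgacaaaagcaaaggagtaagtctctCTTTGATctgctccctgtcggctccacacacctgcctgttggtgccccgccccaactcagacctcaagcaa
Wnt11, chr7:98834862-98835111, plus strand: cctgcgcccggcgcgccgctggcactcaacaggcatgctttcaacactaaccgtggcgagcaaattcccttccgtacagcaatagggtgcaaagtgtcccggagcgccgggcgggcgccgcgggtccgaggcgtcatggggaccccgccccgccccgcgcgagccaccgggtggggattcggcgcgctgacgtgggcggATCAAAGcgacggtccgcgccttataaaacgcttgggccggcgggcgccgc

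In the Wnt5b window shown, the core began 71 bases before the start, on the gene's strand. In the Wnt11 window shown it began 51 bases before the start, on the other strand. Both genes had further windows, at other starts, without the core. The Wnt5b window shown was at the start furthest downstream of those at hand, and the Wnt11 window at the start furthest upstream. Wnt5b, a β-catenin-independent ligand, had 6.61, 10.1, 11.5, 4.25 and 9.35 CPM in Kl/Kl males, against 7.80, 6.25 and 5.05 in +/Kl males. Its groups overlapped, as those of Wnt11 did over all libraries.

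In females no member passed the threshold. Over all 8 libraries 0 of 38 members passed in limma, 3 with an unadjusted p under 0.05 and 0 with voom, where 1 of 17988 genes passed (0.00556%, 0% higher and 0.00556% lower). Of those 17988 genes, 765 had an unadjusted p under 0.05. Of the 38, 1 was higher in every Kl/Kl female and 1 lower (5.26%), against 9.44% of all genes, 6.36% higher and 3.08% lower. Without Kl/Kl replicate 3, 0 of 37 members passed, 6 with an unadjusted p under 0.05 and 0 with voom, where 71 of 17438 genes passed (0.407%, 0.206% higher and 0.201% lower). Of those 17438 genes, 3364 had an unadjusted p under 0.05. The median log2 fold change of the members was then 0.11, against 0.08 over all genes. Of the members 26 of 37 were above 0, and of all genes 11755 of 17438. With median-of-ratios scaling 20 of 37 members were above 0 and their median was 0.03. Here 2 members were higher in every Kl/Kl female and 1 lower (8.11%), against 17% of all genes, 13% higher and 3.95% lower.

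Without Kl/Kl replicate 3, the largest female change among the members tested was that of Wnt10a, with 1.09, 2.35 and 2.48 CPM in Kl/Kl females 1, 2 and 4, against 0.944, 0.864, 0.544 and 0.791 in +/+ females. These groups did not overlap, and the log2 fold change of 0.90 (SE 0.23) had a limma adjusted p = 0.1. Kl/Kl replicate 3 had 0.0928, and with it the log2 fold change was 0.40 (adjusted p = 0.678). With both Kl/Kl replicate 3 and Kl/Kl female 1 left out, Wnt10a passed the threshold. Nkd2 had 0.993, 1.34 and 1.68 in Kl/Kl females 1, 2 and 4, against 0.814, 0.792, 0.672 and 0.826 in +/+ females (log2 0.51, adjusted p = 0.148), also without overlap. Sfrp1 had 163, 155 and 135 in Kl/Kl females 1, 2 and 4, against 227, 192, 177 and 182 in +/+ females, and here every Kl/Kl female was lower (log2 -0.36, adjusted p = 0.118). Dkk3 had 38.4, 61.0 and 42.3 in Kl/Kl females 1, 2 and 4, against 44.6, 34.7, 31.1 and 26.8 in +/+ females, and Axin2 had 2.79, 6.09 and 4.34 against 3.38, 2.59, 2.59 and 3.45. Both overlapped (log2 0.45, adjusted p = 0.238, for Dkk3 and 0.44, adjusted p = 0.311, for Axin2). Without Kl/Kl replicate 3, Fzd8, Tcf7 and Rnf43 had log2 fold changes of -0.15, 0.13 and -0.07, with adjusted p from 0.592 to 0.768. With it, Fzd8 was at -0.58, Tcf7 at 0.16 and Rnf43 at -1.01 (adjusted p from 0.663 to 0.675).

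**Figure D2:**
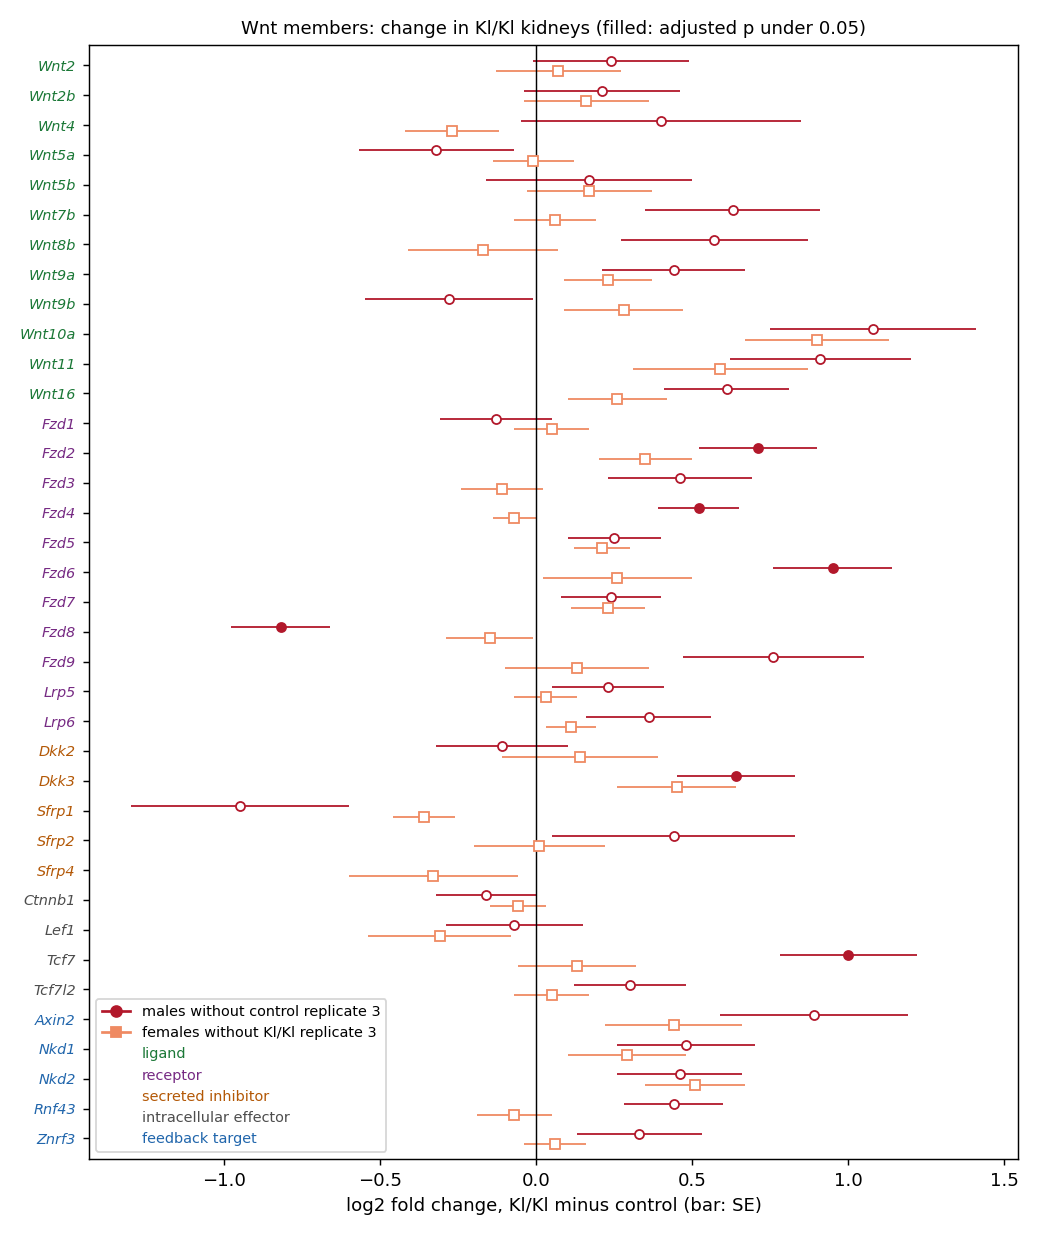
Log2 fold change, Kl/Kl minus control, of the members tested in either sex without the libraries that stood apart, in males (circles) and females (squares). Bars are standard errors, filled marks passed the threshold, and the colour of the name gives the role. The filled marks are Fzd2, Fzd4, Fzd6, Fzd8, Dkk3 and Tcf7 in males, and Sfrp4 has a value in females alone.

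The difference between the male and the female change was tested in a model of all 4 groups. With all 16 libraries 0 of 38 members passed, 4 with an unadjusted p under 0.05 and 0 with voom, where 0.471% of 17848 genes passed, 0.129% with the larger change in males and 0.342% with the smaller. Of those 17848 genes, 1918 had an unadjusted p under 0.05. Without the libraries that stood apart 1 of 37 passed, Fzd4, where 3.26% of 17436 genes did, 1.42% with the larger change in males and 1.84% with the smaller. Its male change exceeded its female change by 0.58 on the log2 scale (limma adjusted p = 0.0308, SE 0.14). Fzd4 had 222, 232 and 212 CPM in Kl/Kl females 1, 2 and 4, against 229, 237, 224 and 239 in +/+ females, with a female log2 fold change of -0.07. In males it was at 192 to 244 in Kl/Kl mice and 148, 159 and 76.7 in +/Kl mice. The tables have separate scales, and levels were not tested across them. The call did not hold with median-of-ratios scaling, and it ended without male control 1 (adjusted p = 0.152) or 2 (0.112), female Kl/Kl 1 (0.0771) or 4 (0.0789), or female control 1 (0.0506), 2 (0.0653) or 4 (0.0631). The calls of Fzd6, Fzd8, Dkk3, Tcf7 and Fzd2 in males are not shown to differ from females. For Tcf7 the difference was 0.87 (adjusted p = 0.109) and for Fzd8 -0.68 (adjusted p = 0.104).

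Of 102 other genes of the pathway in the tables, 91 were tested in males, and 27 rose and 3 fell over all libraries (33%, against 20.4% of all genes). Without control replicate 3, 21 rose and 4 fell (27.5%, against 18.2%). With median-of-ratios scaling 19 rose and 3 fell, and 13 rose and 4 fell without control replicate 3. In the test of the sexes' difference, 4 of 92 passed without the libraries that stood apart (4.35%, against 3.26% of all genes), Frzb, Apcdd1, Dact2 and Ctbp2. Of the other secreted inhibitors, Frzb, a decoy of the SFRP family, had 15.2, 21.4, 13.5, 15.2 and 14.9 CPM in Kl/Kl males, against 55.8, 55.9 and 42.3 in +/Kl males. The groups stood far apart and Frzb fell (log2 -1.65, SE 0.18, limma adjusted p = 0.00023; -1.79 without control replicate 3). Frzb was 17.6, 12.0 and 11.9 in Kl/Kl females 1, 2 and 4, against 14.2, 13.0, 11.4 and 12.9 in +/+ females, and Kl/Kl female 3 had 49.9. Levels were not tested between the sexes' tables. The difference between the sexes' changes was -1.87 (SE 0.24, adjusted p = 0.000514) without the libraries that stood apart and -2.20 (adjusted p = 0.0844) with them. Apcdd1, a membrane inhibitor that binds Wnt and LRP5, had 11.1, 9.52, 8.49, 7.78 and 10.6 in Kl/Kl males, against 4.91, 4.60 and 4.49 in +/Kl males. It rose by 0.94 (adjusted p = 0.00495), and 2 of 6 genes of that list passed, 1 in each direction.

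In the cytoplasmic relay and destruction complex, 6 of 22 genes rose in males over all libraries, and 7 rose and 1 fell without control replicate 3. Of all genes, 15% rose and 5.36% fell over all libraries, and 12.7% rose and 5.5% fell without control replicate 3. Dact2, an antagonist that binds Dishevelled, had 43.3, 30.0, 32.9, 35.5 and 38.3 CPM in Kl/Kl males, against 15.2, 16.5 and 10.7 in +/Kl males (log2 1.33, SE 0.18, limma adjusted p = 0.00104). Kl/Kl females 1, 2 and 4 held 23.7 to 30.7 and +/+ females 24.0 to 33.1, and the sexes' changes differed by 1.07 (adjusted p = 0.0149) without the libraries that stood apart. Apc, Axin1, Csnk1e, Dact1 and Tnks also rose, by 0.68 to 0.93; all 5 act in the breakdown of β-catenin or at Dishevelled. Without control replicate 3 Dvl1, a Dishevelled gene, rose by 0.46 and Fbxw11, part of the ubiquitin ligase that marks β-catenin, fell by 0.46. Of 10 other receptors and receptor regulators 4 rose over all libraries and 2 without control replicate 3. Ptk7, a co-receptor of planar polarity, had 12.7 to 17.8 in Kl/Kl males and 7.00 to 7.49 in +/Kl males (log2 1.03, adjusted p = 0.00239). Lrp4 rose with and without control replicate 3, and Lgr4 and Ror2 with it alone.

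Of 15 nuclear cofactors 4 rose in males, Ctbp2, Tcf7l1, Tle1 and Tle4, where 15% of all genes rose. The first 3 also rose without control replicate 3, where 12.7% did. Ctbp2, a co-repressor, had 41.9 to 48.0 CPM in Kl/Kl males and 25.6 to 30.9 in +/Kl males (log2 0.69, limma adjusted p = 0.00622). It was 42.7 to 49.6 in Kl/Kl females 1, 2 and 4 and 43.9 to 47.6 in +/+ females, and the sexes' changes differed by 0.62 (adjusted p = 0.0167) without the libraries that stood apart. Of 14 genes of the planar polarity and calcium branch 5 rose, Camk2d, Celsr2, Daam2, Nfatc2 and Prickle1, and Camk2d and Prickle1 without control replicate 3. Camk2d, a calcium-dependent kinase, had 27.5 to 43.8 in Kl/Kl males and 16.9 to 18.2 in +/Kl males (log2 0.94, adjusted p = 0.00495). The list of secretion and agonist genes had 3 tested and 0 past the threshold.

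**Figure D3:**
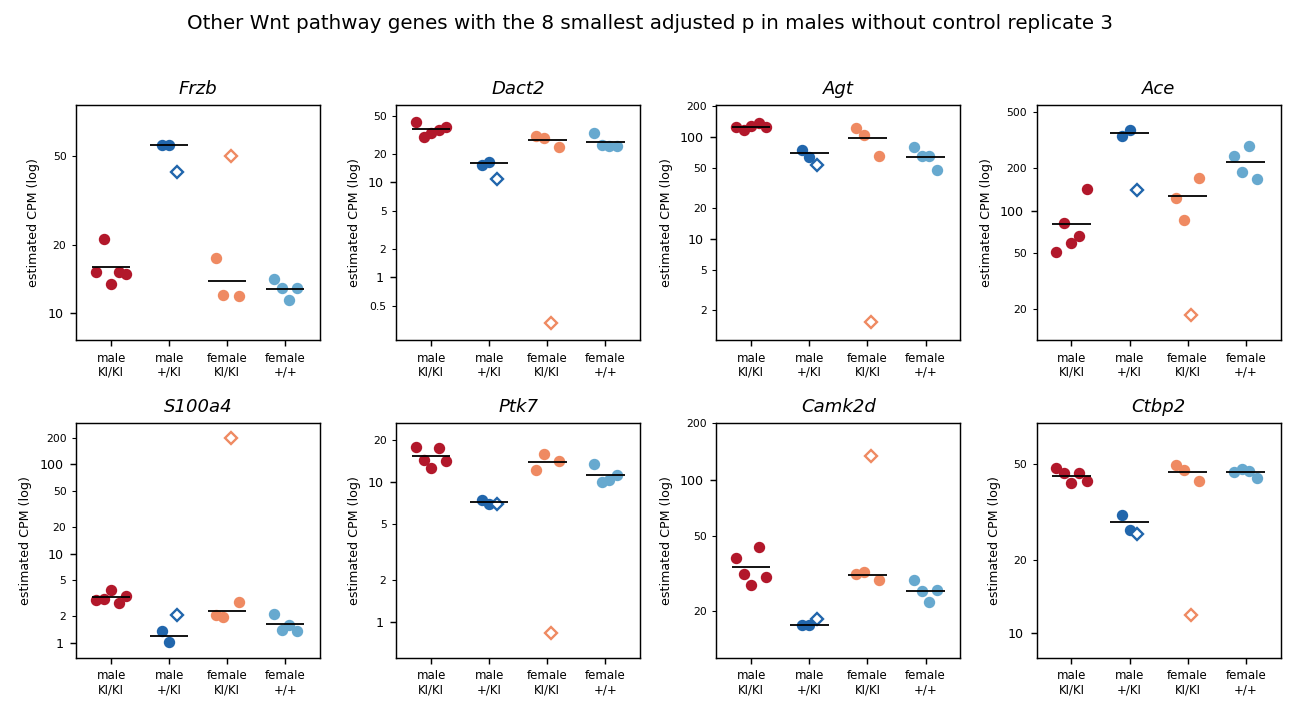
Estimated CPM (log axis) of the 8 other pathway genes with the smallest adjusted p in males without control replicate 3, in each library of Kl/Kl males, +/Kl males, Kl/Kl females and +/+ females. Circles are libraries, open diamonds are the libraries that stood apart, and bars are group means without them. Frzb lay at 13.5 to 21.4 in Kl/Kl males and 42.3 to 55.9 in +/Kl males, and the open diamond of Kl/Kl females, at 49.9, lies within the +/Kl male range.

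Genes reported elsewhere as Wnt targets went both ways in males. Of 21 tested, 7 rose and 2 fell over all libraries, and 6 rose and 2 fell without control replicate 3. Of all genes, 15% rose and 5.36% fell with that library, and 12.7% and 5.5% without it. Sp5, a direct target that damps the pathway, had 9.94, 10.3, 10.2, 12.4 and 14.0 CPM in Kl/Kl males, against 17.2, 17.8 and 21.2 in +/Kl males. It was lower in every Kl/Kl male (log2 -0.70, SE 0.17, limma adjusted p = 0.0159), where Axin2 was higher. Of the genes of the renin-angiotensin system, Agt, which encodes angiotensinogen, had 125, 117, 127, 137 and 125 in Kl/Kl males, against 74.7, 64.3 and 53.2 in +/Kl males (log2 0.98, adjusted p = 0.00163). Ace, which encodes the converting enzyme, had 51.1, 82.5, 59.0, 66.1 and 143 in Kl/Kl males, against 340, 376 and 141 in +/Kl males. Control replicate 3 held the 141, and the fall was -1.80 (adjusted p = 0.00887) with it and -2.25 (adjusted p = 0.00421) without it. Ren1, the renin gene, overlapped between the groups (log2 0.81, adjusted p = 0.333). S100a4, a fibroblast and leukocyte calcium-binding protein, had 2.81 to 3.93 in Kl/Kl males and 1.02 to 2.03 in +/Kl males (log2 0.95, adjusted p = 0.0117). Cd44, Plaur, Fst, Bambi and Myc rose by 0.86 to 1.35, Myc only with control replicate 3 (adjusted p = 0.0171 and, without it, 0.0544). The cell cycle gene Ccnd1 ranged from 89.8 to 580 in Kl/Kl males and from 217 to 394 in +/Kl males (log2 0.03, adjusted p = 0.977). In females without Kl/Kl replicate 3, 1 of 93 other pathway genes passed, the co-repressor gene Tle2 (1.08%, against 0.407% of all genes). Tle2 had 18.3, 13.7 and 16.7 in Kl/Kl females 1, 2 and 4, against 32.6, 26.8, 33.6 and 25.2 in +/+ females (log2 -0.85, SE 0.13, adjusted p = 0.0414).

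Female Kl/Kl replicate 3 had Wnt values outside those of the other 7 female libraries for most members. Of 38 members 10 lay above all 7 and 19 below, where 35.9% of all genes lay above and 51.8% below. Sfrp5, among those above, reached the minimum only through this library. The share of all genes was taken over genes averaging at least 0.5 CPM in all 16 libraries, this one included. Both sets thus admit genes that are high in this library alone. Sfrp4 was at 42.8 CPM, 63.6 times the median of the others (0.673). Wnt16 was at 11.2 (0.704 to 1.34 in the others), Dkk3 at 206 (26.8 to 61.0) and Sfrp2 at 31.1 (5.58 to 11.5). These genes were high in the library whose 6 fibroblast and pericyte markers summed to 3500, against 127 to 314 in the other 15 libraries. Its 4 smooth muscle markers summed to 5860 (at most 177 elsewhere) and its 4 adipocyte markers to 8100 (at most 134). Of the fibroblast and pericyte markers, Pdgfrb was not raised, with 30.9 against 26.5 to 54.9 in the other libraries. Wnt7b was at 0.186 (15.4 to 21.2), Rnf43 at 0.371 (9.81 to 13.2), Wnt9b at 0.371 (4.03 to 8.14) and Lrp5 at 2.13 (62.6 to 82.0). Its 6 collecting duct markers summed to 10.5, against 534 to 1490 in the other 15. The part of any cell type in these values was not tested. Ctnnb1 was at 705, above the 538 to 669 of the other 7. In male control replicate 3 the median ratio to the other +/Kl males was 0.814 over the members and 0.928 over all genes.

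**Figure D4:**
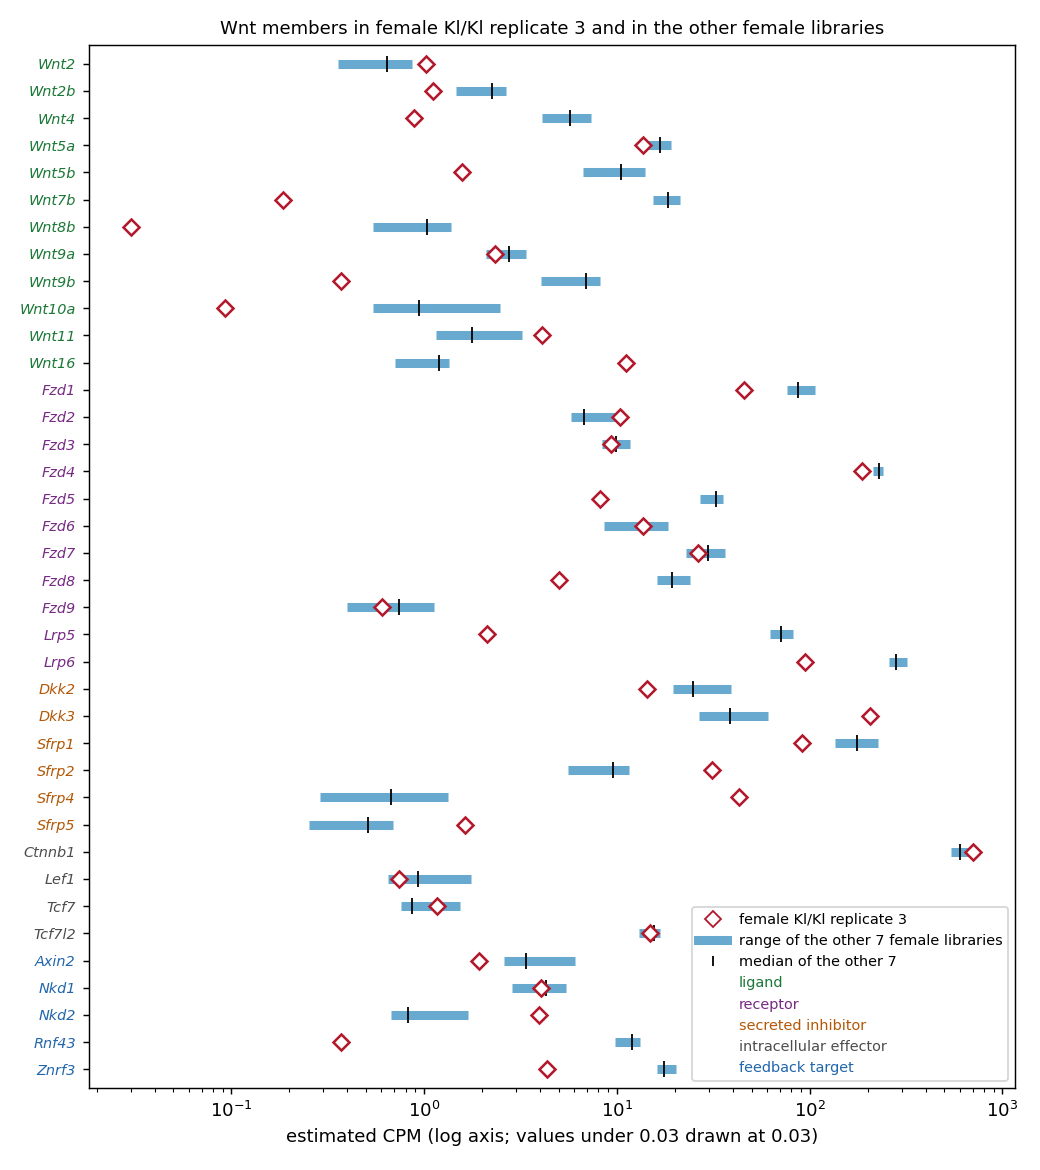
Estimated CPM (log axis) of the members in female Kl/Kl replicate 3 (diamonds), against the range (bars) and median (ticks) of the other 7 female libraries. Diamonds lie right of the bar for Sfrp4 (42.8), Wnt16 (11.2) and Dkk3 (206) and left of it for Wnt7b (0.186), Rnf43 (0.371) and Lrp5 (2.13).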

How the data were processed

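RNA-seq of polyA RNA from 16 kidneys was deposited as a table of TPM for males and a table for females, 8 libraries each, made by the authors on mm39 with Partek, per the submitters' processing notes. The aligner is not given in the sources used here. The deposited TPM of each column summed to one total per table, and TPM times genomic span gave whole reads for 75.4% to 77.4% of low values (within 0.05 read), so spans with introns had been used as lengths. Estimated CPM were computed from these reads. Each sex was tested with limma 3.58.1 (R 4.3.3) on log2(CPM + 0.5), with a mean-variance trend and a mean of at least 0.5, with and without the library that stood apart, and the sexes' difference in 1 model of 4 groups. Kits marked strand, but whether counting used it is not given, so overlapping antisense genes cannot be told apart. A count test was not used for the main result, since the table holds TPM; voom on the estimated reads was an alternative. Other alternatives changed the pseudocount, filter, scaling, weights, replicate block, library-name prefix and libraries used, and leaving out pairs of Kl/Kl males and keeping libraries with 1 name prefix were chosen after seeing the data. Members were accounted for in full, those past the threshold with each library's value. Other pathway genes are named where past the threshold with all libraries, or among the 8 with the smallest adjusted p without the library that stood apart. Lrp6, Ctnnb1, Ren1, Ccnd1 and other genes not past it were picked after their values were seen. Members and lists were chosen with earlier results of these data known. The fits were tested on simulated data. Tables and figures used Python 3.11.15, NumPy 2.4.6, pandas 2.3.3, SciPy 1.17.1 and matplotlib 3.10.9.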

Additional observations from a re-analysis of the deposited data

Results flagged for a closer look

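Among 114 groups of 4 or 5 values, 10 held a library far from the rest of its group by Dixon's test, where chance gives about 5.7 (1 in 20). Of these, 7 were female Kl/Kl replicate 3, the library whose kidney markers were low. It was high in Wnt16 (11.2 CPM), Dkk3 (206), Sfrp2 (31.1) and Sfrp4 (42.8), and low in Wnt9b (0.371), Fzd5 (8.16) and Znrf3 (4.36). The other 3 were Kl/Kl male 1 with 2.83 for the ligand Wnt2b, against 1.51 to 1.89 in the other Kl/Kl males, Kl/Kl male 2 with 57.3 for Dkk3, against 36.2 to 41.6, and +/+ female 4 with 2.98 for Wnt11, against 1.15 to 1.34 in the other +/+ females. Kl/Kl males 1 and 2 were the libraries with adrenal cortex markers, whose part in these values was not tested.

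The change of Fzd4 differed between the sexes in limma's test of the difference, by 0.58 on the log2 scale (adjusted p = 0.0308) without the libraries that stood apart. With them the difference was 0.98 (adjusted p = 0.238).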

How the results depend on the processing

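The number of members past the threshold in males, 10 over all libraries and 6 without control replicate 3, moved with several settings. It was 0 and 1 on log2(TPM + 1), where 10 members could be tested, 6 and 3 with median-of-ratios scaling, and 17 and 14 with array weights. With the library-name prefix as a term it was 14 and 10. Leaving out Kl/Kl males 1 and 4 gave 6 and 11, and leaving out Kl/Kl males 1 and 2 gave 1 and 3, both chosen after seeing the data. Leaving out each library in turn gave 3 to 9, and 0 to 8 without control replicate 3. The cause was not tested. The share of all genes past the threshold under these alternatives, and with the replicate block below, is not given here. The counts under them therefore cannot be set against it. Of the members named as changed, no log2 fold change changed sign. In females 0 members passed over all libraries under every alternative and each library left out; without Kl/Kl replicate 3 the range was 0 to 1 (Wnt10a). For the sexes' difference over all libraries 0 passed, and 2 with array weights (Fzd4 and Fzd8). Without the libraries that stood apart it was 1, and 0 on log2(TPM + 1) and with median-of-ratios scaling, and 0 to 1 leaving out each library. With a minimum of 0.1 CPM or none, 41 and 45 members were tested, and Sfrp5 passed in males under both; Wnt10b passed with no minimum over all libraries. With no minimum 7 members passed in males, 5 of them among the 10.

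With the replicate number as a block, 3 members passed in males (Axin2, Dkk3 and Wnt7b), 2 of them among the 10, and 6 without control replicate 3, 2 of them among the 6. In females 0 passed, and for the sexes' difference 0, or 2 (Fzd4 and Wnt4) without the libraries that stood apart. Deviations of same-numbered libraries correlated from -0.18 to 0.01 in males and from -0.12 to 0.17 in females. So few pairs cannot show whether the numbers pair the mice. Same-numbered Kl/Kl and control libraries also carried neighbouring sample numbers in their library names, and the labels do not say why.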
